A study of Homo sapiens with 12 samples.

Results

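The Notch receptors NOTCH1, NOTCH2 and NOTCH3 are 3 of the 199 genes of the nCounter Stem Cell Panel. They were taken from it by symbol and by no cutoff on their values, but with earlier results of these data known. They were measured in all 12 samples of LX-2 cells, an established line of activated human hepatic stellate cells (HSCs). Cells grown in medium with serum were transfected with a miR-25 mimic at 10 pmol/ml or with a control mimic of nematode sequence, so every sample had been transfected and none was untreated. Each of the 4 groups, control or miR-25 at 24 h or 48 h, held 3 samples, and each transfection gave 1 pair of them, a control and its miR-25 partner. The study lists different transfection days for the 24 h and the 48 h samples, so these were separate transfections. The labels give a transfection efficiency of 0.59, 0.75 and 0.81 for the 24 h pairs and of 0.42, 0.61 and 0.65 for the 48 h pairs, from a fluorescent miRNA in a parallel well. They give a miR-25 level, relative to the paired control, of 62.34 to 350.13 in the 24 h pairs and of 347.45 to 681.22 in the 48 h pairs.

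Notch receptors are single-pass membrane proteins that are activated by ligands (Delta-like and Jagged proteins) on neighbouring cells. Ligand binding allows cleavage by ADAM proteases and then by γ-secretase, which frees the intracellular domain to enter the nucleus and join the DNA-binding protein RBPJ. In the liver, Notch signaling is best known from bile duct formation, and it has been studied in HSC activation and fibrosis. NOTCH3 is known in other tissues as a receptor of pericytes and vascular smooth muscle, cells that are close to HSCs in kind. The 4 human receptors are paralogs with extracellular domains built largely of EGF-like repeats, so the specificity of a probe matters for telling them apart.

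In the nCounter assay, each mRNA is bound by a pair of probes over a stretch of 100 bases, and barcodes on the bound probes are counted without amplification. These stretches are shown because every receptor level given here rests on them, with the mature hsa-miR-25-3p of RefSeq (GRCh38.p14, chr7:100093571-100093592, minus strand), whose seed, bases 2 to 8, is in capitals.

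NOTCH1 (NM_017617.3): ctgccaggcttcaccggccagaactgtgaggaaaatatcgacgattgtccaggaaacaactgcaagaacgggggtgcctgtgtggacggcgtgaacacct

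NOTCH2 (NM_024408.2): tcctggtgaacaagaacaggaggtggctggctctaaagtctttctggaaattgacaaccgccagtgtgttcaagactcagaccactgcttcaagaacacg

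NOTCH3 (NM_000435.2): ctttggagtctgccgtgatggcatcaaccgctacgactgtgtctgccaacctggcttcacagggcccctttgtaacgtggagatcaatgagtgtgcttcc

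hsa-miR-25-3p: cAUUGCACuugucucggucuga

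The targets of NOTCH1 and NOTCH3 encode EGF-like repeats. GC content was 56%, 49% and 55% for NOTCH1, NOTCH2 and NOTCH3. The longest run of bases shared by NOTCH1 and NOTCH3 was 8 bases, and it was 7 bases for either of them with NOTCH2. In the best ungapped alignment NOTCH1 and NOTCH3 matched at 30 of 54 bases (55.6%), NOTCH1 and NOTCH2 at 45.3% and NOTCH2 and NOTCH3 at 40.4%. The targets thus share only short exact runs in spite of the shared repeats, and the specificity of the probes was not tested. Of the 3 targets, 0 held the reverse complement of the miR-25 seed, which says nothing about the rest of the transcripts. Genome positions are not given, as the panel lists transcripts without a genome build. Human genomes also hold NOTCH2NL genes, copies of the first part of NOTCH2, and whether the NOTCH2 probes bind their transcripts was not tested.

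The total over the panel genes was 321243 to 409581 counts at 24 h and 107377 to 200821 at 48 h. The genes gave 4.02 to 5.20 counts for each count of the spiked positive controls at 24 h and 1.92 to 3.79 at 48 h. Time point, depth and transfection occasion cannot be told apart. Both samples of 48 h replicate 1 stood apart from the other 48 h samples: over the 136 tested genes, log2 levels correlated at 0.937 to 0.951 with the other replicates of the group, and at 0.994 to 0.995 between replicates 2 and 3. The mesenchymal genes COL1A1, CDH2, CXCL12, FGFR1, FGF2 and CD44 were above background in all 12 samples. Of the markers of other cell types, CD3D, CD8B, SOX2 and S100B were above it in 0 samples, CDH1, CD8A and MYOD1 in 1, ACTC1 in 2, KRT15 and NCAM1 in 5, NANOG and SOX1 in 8, CD4 in 11 and POU5F1 in 12, with 54 counts at most; their part in the results was not tested. Fewer expressing cells and less mRNA per cell cannot be told apart in such bulk samples.

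NOTCH2 was by far the most abundant receptor mRNA, followed by NOTCH1, with NOTCH3 and the remaining receptor of the panel, NOTCH4, lowest. The background of a sample was taken as 2 SD above the mean of its 8 negative controls, 10.2 to 16.5 counts at 24 h and 5.52 to 8.40 at 48 h. All 4 receptors were above it in all 12 samples. NOTCH2 had 669 to 3124 counts, which is 94.98 to 283 times the background level, and was the 26th to 42nd most abundant of the 199 genes. NOTCH1 had 47 to 150 counts, 7.88 to 12.4 times the background level. NOTCH3 had 23 to 45 counts, 1.58 to 6.39 times the background level, so that counting error and background weigh most on NOTCH3. The nCounter count does not grow with transcript length, but probe pairs can differ in how well they capture their targets, which limits comparison of levels between receptors.

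Of the counts of NOTCH1, NOTCH2 and NOTCH3 together, NOTCH2 made up 93.8% to 94.6% in every 24 h sample and 86.5% to 93.3% at 48 h. NOTCH1 and NOTCH2 did not overlap in any group, nor did NOTCH1 and NOTCH3. NOTCH4 had 43 to 70 counts at 24 h and 21 to 50 at 48 h. At 24 h the NOTCH4 counts of the control samples (52, 62 and 43) were above those of NOTCH3 in each sample. At 48 h the controls had NOTCH3 counts of 25, 45 and 37 and NOTCH4 counts of 21, 39 and 32, so that these lowest neighbours overlapped and NOTCH3 was the higher in each control sample. In the miR-25 samples at 48 h NOTCH4 was the higher in each sample, with counts of 25, 43 and 50 against 23, 35 and 39.

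**Figure D1:**
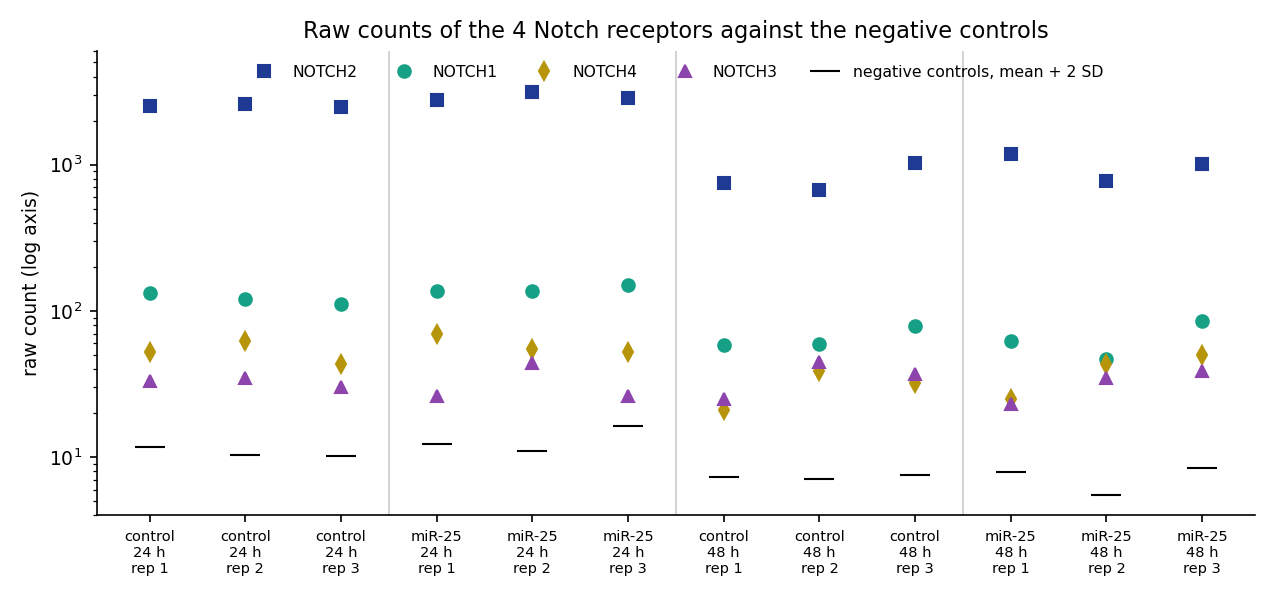
Raw counts of NOTCH1, NOTCH2, NOTCH3 and NOTCH4 in each of the 12 samples on a log axis, with the background level of each sample (negative controls, mean plus 2 SD) as a black bar. NOTCH2 lies at 669 counts or above in every sample, while NOTCH3 stays between 23 and 45 counts and comes closest to the bars, which are lower at 48 h.

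To follow the receptors through time, counts were divided by the total over the panel genes of the sample and are given per 100000. The study also divided by the average count of each sample, in which a scaling by positive controls cancels, but it did so after background correction, which is given here as an alternative. NOTCH3 was the receptor with a change past the test: its level was 8.16, 10.2 and 9.34 per 100000 in the control samples at 24 h and 23.3, 31.97 and 20.2 at 48 h. Every 48 h control was above every 24 h control. How many of the 136 tested genes had groups without overlap was not counted, here or in the comparisons below. The fitted change was 2.71-fold, a log2 fold change of 1.44 (SE 0.25, n = 3 against 3, adjusted p = 0.0157 by quasi-likelihood in edgeR). Of the 136 tested genes it was the 2nd highest by log2 change and the 5th by p. In the controls 42 of 136 genes had an unadjusted p under 0.05 in edgeR. Of the 136, 7 (5.15%) were called, and NOTCH3 was 1 of them, while NOTCH1 and NOTCH2 were not.

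The call of NOTCH3 in the controls depended on few samples and on the scaling. It was lost without 24 h replicate 1, 2 or 3 (adjusted p = 0.082, 0.0934 and 0.089 from edgeR) and without 48 h replicate 2 (adjusted p = 0.082), and with the replicate number as a block (adjusted p = 0.0614). It was kept without 48 h replicate 1, the sample that stood apart, with a log2 fold change of 1.47 (adjusted p = 0.00154 from edgeR). Raw counts of NOTCH3 were alike at both times, 33, 35 and 30 in the controls at 24 h and 25, 45 and 37 at 48 h, while the total over the genes was lower at 48 h. Relative to the positive controls instead, a scaling chosen after seeing the data, the log2 fold change of NOTCH3 was 0.66 (adjusted p = 0.205 from edgeR), with 26 genes called. Under that scaling the median of all tested genes was -0.64, against 0.13 with the gene total. A scaling moves all genes of a sample alike, so the margin of NOTCH3 above the typical gene is nearly the same by construction.

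In the miR-25 samples, NOTCH3 was at 6.35, 11.3 and 7.07 per 100000 at 24 h and at 14.8, 22.0 and 19.4 at 48 h. These ranges did not overlap either. The log2 fold change was 1.18 (SE 0.31, n = 3 against 3), the highest of the 136 tested genes but the 12th by p. The adjusted p of 0.0757 (edgeR) missed the threshold. In this comparison 43 of 136 genes had an unadjusted p under 0.05 in edgeR. Of the 136, 10 (7.35%) were called, and of the receptors 0. The call was made with TMM scaling (17 of the 136 genes called), DESeq2 (33 called) and all 12 samples in 1 fit (17 called). It was also made without 48 h replicate 1 (log2 fold change 1.32, adjusted p = 0.00548 from edgeR), when 62 genes were called. With the positive control scaling the log2 fold change was 0.64 (adjusted p = 0.163 from edgeR). Subtracting the mean of the negative controls raised the fold of the group means from 2.72 to 2.91 in the controls and from 2.27 to 2.43 in the miR-25 samples. NOTCH4 also had values above 0 over time, with log2 fold changes of 0.54 (SE 0.26) in the controls and 0.59 (SE 0.25) in the miR-25 samples. Neither passed in edgeR (adjusted p = 0.191 and 0.160).

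NOTCH1 was at 32.6, 35.02 and 34.9 per 100000 in the controls at 24 h and at 54.0, 41.9 and 43.1 at 48 h. The groups did not overlap, but the log2 fold change of 0.43 (SE 0.16) did not pass in edgeR (adjusted p = 0.128). In the miR-25 samples NOTCH1 was at 33.4, 35.2 and 40.8 at 24 h and at 39.9, 29.6 and 42.3 at 48 h, and these overlapped. The log2 fold change there was 0.04 (SE 0.19, adjusted p = 0.881 from edgeR). With the positive control scaling the values for NOTCH1 were below 0, at -0.35 in the controls and -0.52 in the miR-25 samples, where the medians of all tested genes were -0.64 and -0.46. Against these medians NOTCH1 lay higher in the controls and slightly lower in the miR-25 samples. The same held with the gene total (medians 0.13 and 0.09), as it nearly must, since a scaling moves all genes of a sample alike.

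NOTCH2 was at 622, 759 and 768 per 100000 in the controls at 24 h and at 698, 475 and 556 at 48 h. Replicate 1 at 48 h was the highest of its group and lay within the 24 h range, while replicates 2 and 3 were below all 24 h controls. The log2 fold change was -0.32 (SE 0.16, adjusted p = 0.211 from edgeR). In the miR-25 samples NOTCH2 had levels of 677, 803 and 777 in the 24 h samples against 759, 484 and 506 in those of 48 h, with replicate 1 again the highest, and showed a log2 fold change of -0.37 (SE 0.19, adjusted p = 0.235 from edgeR). Without 48 h replicate 1, NOTCH2 was called lower in both, with log2 fold changes of -0.47 (adjusted p = 0.011 from edgeR) and -0.60 (adjusted p = 7.6e-04 from edgeR), when 54 and 62 of the 136 genes were called. With the positive control scaling the values were -1.09 and -0.96 (adjusted p = 0.0265 and 0.00663 from edgeR), but the medians of all tested genes were then -0.64 and -0.46 and 26 and 50 of the genes were called.

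**Figure D2:**
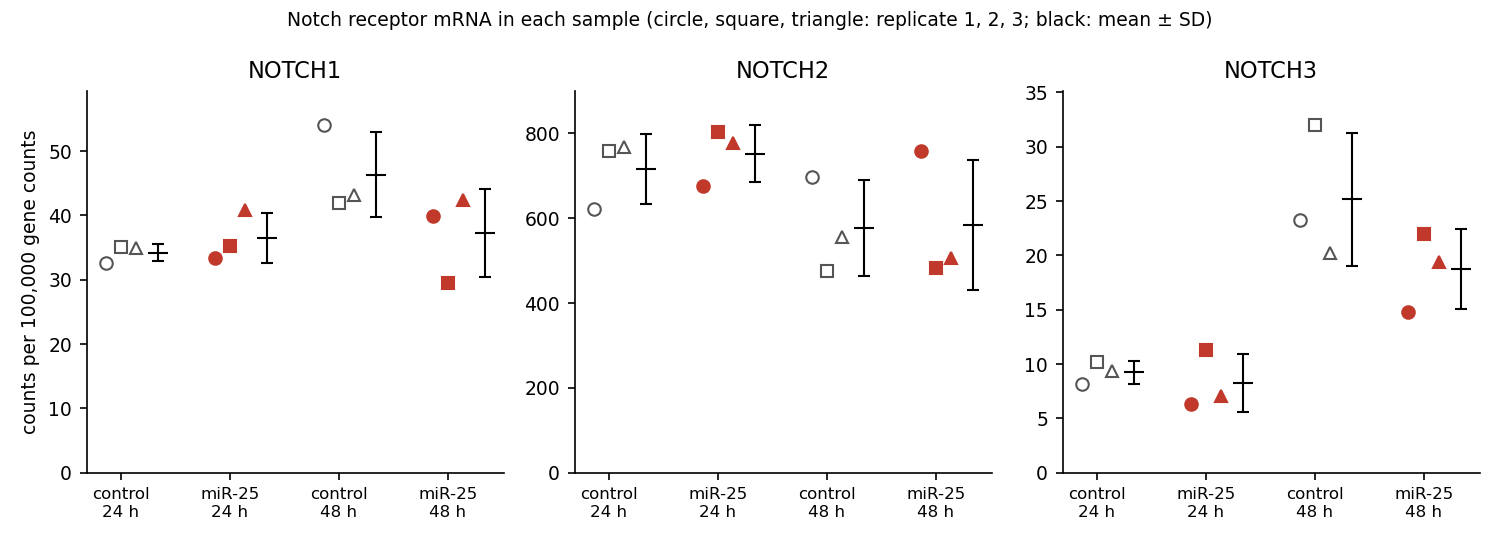
Level of NOTCH1, NOTCH2 and NOTCH3 in counts per 100000 gene counts, for control (open grey) and miR-25 (red) samples at 24 h and 48 h, with a symbol for each replicate and the mean ± SD of 3 samples in black. Of the 3 receptors shown, NOTCH3 is the 1 whose 48 h samples all lie above its 24 h samples in both arms. NOTCH2 at 48 h splits into replicate 1 at 698 and 759 and the others at 475 to 556.

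**Figure D3:**
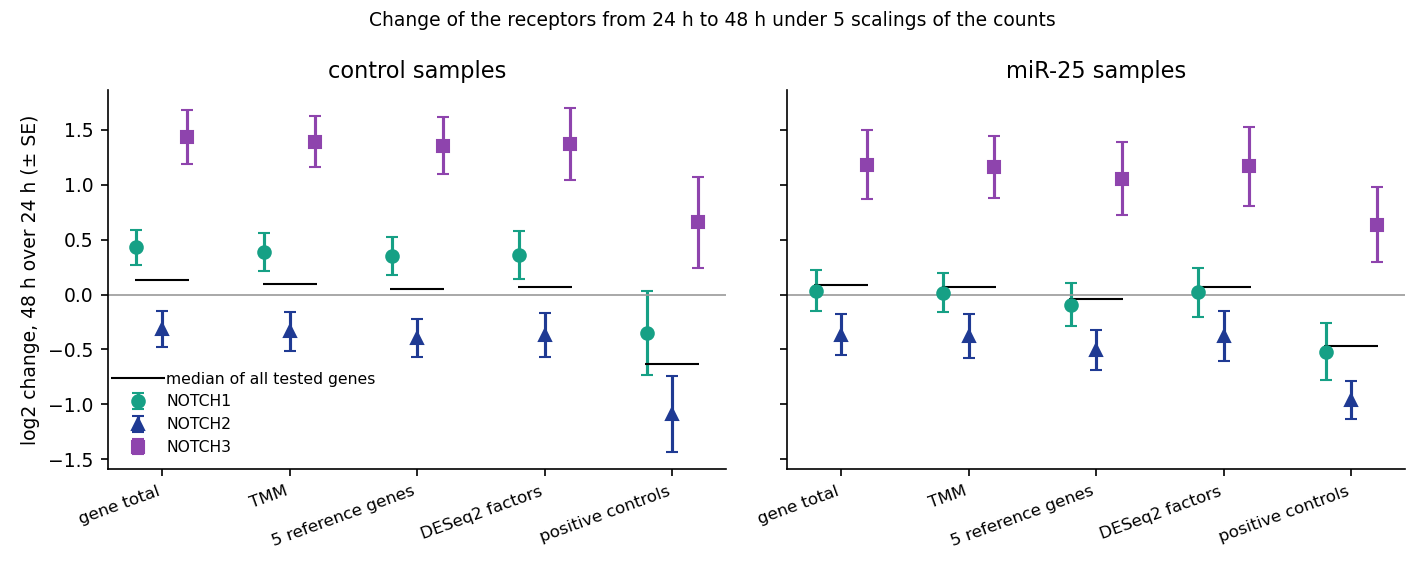
Log2 change from 24 h to 48 h with its SE for NOTCH1, NOTCH2 and NOTCH3 under 5 scalings, in control and miR-25 samples, with the median of all tested genes as a black bar. With the positive controls all values shift by about as much as the median, since a scaling moves all genes of a sample alike. The order of the receptors, NOTCH3 above NOTCH1 above NOTCH2, is therefore nearly fixed in advance across the 5 scalings and is no separate support.

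The ratio of receptors within a sample needs no scaling. There were 5.25, 4.61 and 4.54 NOTCH1 counts per 100 NOTCH2 counts in the controls at 24 h, and 7.74, 8.82 and 7.75 at 48 h. NOTCH3 gave 1.31, 1.35 and 1.22 per 100 in the 24 h controls, against 3.34, 6.73 and 3.63 in those of 48 h. Both ratios were thus higher in every 48 h control than in any 24 h control, by 1.69-fold for NOTCH1 and by 3.36-fold for NOTCH3 (ratios of geometric means). A two-sided exact permutation test gave p = 0.1 for each, the smallest that 3 against 3 samples can give, so neither could pass a threshold of 0.05.

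In the miR-25 samples NOTCH3 gave 0.938, 1.41 and 0.910 counts per 100 NOTCH2 counts at 24 h and 1.95, 4.55 and 3.83 at 48 h, a 3.05-fold difference without overlap (two-sided exact permutation test, p = 0.1). Replicate 1 was the lowest of the 48 h samples. For NOTCH1 the miR-25 samples had 4.94, 4.39 and 5.25 at 24 h and 5.26, 6.11 and 8.36 at 48 h, where the groups nearly touched (1.33-fold, p = 0.1, exact permutation test), and after background subtraction they overlapped (p = 0.2). Adjusted over the 10 within-sample tests made, the smallest p was 0.25. Without any 1 replicate, NOTCH3 per NOTCH2 was at 1.43 to 1.94 on the log2 scale in the controls and 1.36 to 1.97 in the miR-25 samples. Groups without overlap cannot change direction when 1 replicate is left out, so these ranges show the size of the difference only.

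**Figure D4:**
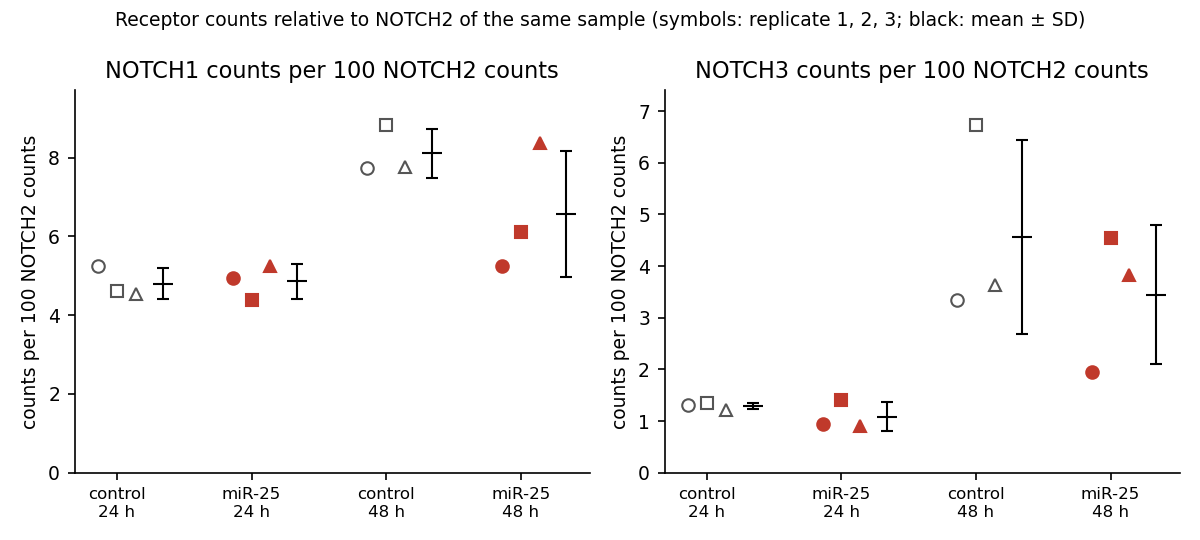
Counts of NOTCH1 (left) and NOTCH3 (right) per 100 NOTCH2 counts of the same sample, for control (open grey) and miR-25 (red) samples at 24 h and 48 h, with mean ± SD of 3 samples in black. NOTCH3 lies between 0.910 and 1.41 in the 24 h samples and between 1.95 and 6.73 in the 48 h samples.

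The main question of the study was how miR-25 acts on such genes, and ratios of miR-25 to control were taken within each pair. At 24 h, the NOTCH1 ratios were 1.02, 1.01 and 1.17 (mean 1.07 ± 0.09, SD, n = 3 pairs), all just above 1. At 48 h its ratios were 0.739, 0.705 and 0.982 (mean 0.809 ± 0.15, SD, n = 3 pairs), all below 1. Of the 136 tested genes, 96 (70.6%) had a log2 fold change above 0 at 24 h and 60 (44.1%) at 48 h in edgeR. The log2 fold change of NOTCH1 at 24 h was 0.09 (SE 0.10, adjusted p = 0.872 from edgeR), and that at 48 h was -0.28 (SE 0.14, adjusted p = 0.385 from edgeR). The exact 95% interval for the counting error of a pair ratio held 1 in 6 of 6 pairs for NOTCH1.

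NOTCH2 showed ratios of 1.09, 1.06 and 1.01 in the 24 h pairs and of 1.09, 1.02 and 0.911 in the 48 h pairs. Its high counts gave the narrowest intervals: 1.03 to 1.15 for the first pair at 24 h and 0.834 to 0.994 for the third pair at 48 h. The pairs at 48 h lay on both sides of 1, beyond counting error for the third. The log2 fold change was 0.07 (SE 0.05, adjusted p = 0.778 from edgeR) at 24 h and 0.00 (SE 0.06, adjusted p = 0.993 from edgeR) at 48 h. The latter fell on either side of 0 under other scalings, and NOTCH2 was called higher at 48 h with the positive control scaling (0.29, adjusted p = 0.0499 from edgeR), when 51 genes were called and the median of all tested genes was 0.27.

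NOTCH3 showed ratios of 0.778, 1.11 and 0.758 in the 24 h pairs, 1 of them above 1, and of 0.636, 0.688 and 0.962 in the 48 h pairs, all below 1. The means were 0.881 ± 0.20 and 0.762 ± 0.18 (SD, n = 3 pairs each). The log2 fold change was -0.17 (SE 0.19, adjusted p = 0.899 from edgeR) at 24 h and -0.39 (SE 0.19, adjusted p = 0.385 from edgeR) at 48 h, the lowest and the third lowest value of the 136 tested genes. By p, however, these changes were only the 63rd and the 21st of the 136. With 23 to 45 counts a sample, the counting interval held 1 in 6 of 6 pairs, and for the lowest pair it ran from 0.345 to 1.17. At this depth that pair alone did not tell its ratio of 0.636 from 1. With the positive control scaling the values at 48 h were -0.02 for NOTCH1 and -0.12 for NOTCH3.

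At 24 h edgeR called 0 of 136 genes (0.0%), and so did DESeq2 and limma, while 9 genes had an unadjusted p under 0.05 in edgeR. For 48 h 1 gene (0.735%) was called, and it was not a receptor. Over the 6 pairs, the log2 fold changes were -0.10 (SE 0.09) for NOTCH1, 0.04 (SE 0.04) for NOTCH2 and -0.28 (SE 0.14) for NOTCH3, with adjusted p-values of 0.652, 0.675 and 0.269 from edgeR. NOTCH3 was below its control in 5 of 6 pairs. Over both times edgeR called 0 genes (0.0%), DESeq2 and limma called 1 each, and 26 genes had an unadjusted p under 0.05 in edgeR. Relative to NOTCH2 in the same sample, NOTCH3 was 0.785 times the control over the 6 pairs (two-sided exact sign-flip permutation test, p = 0.125, adjusted 0.25; the smallest possible is 0.0312).

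The study corrected ratios for transfection efficiency: an average ratio under 0.98 led to multiplication by the efficiency of the pair, and one over 1.02 to division by it. With this step, after background subtraction, the mean ratio at 48 h became 0.459 ± 0.17 for NOTCH1 and 0.435 ± 0.19 for NOTCH3 (SD, n = 3 pairs), and it stayed at 1.01 ± 0.09 for NOTCH2, whose average lay between the limits. At 24 h the same step gave 1.52 ± 0.21 for NOTCH1, 1.501 ± 0.31 for NOTCH2 and 0.626 ± 0.21 for NOTCH3. When the direction of the correction at 24 h was taken from the 48 h average instead, an alternative chosen after seeing the data, NOTCH1 came to 0.773 ± 0.17 at 24 h in place of 1.52, from an uncorrected 1.07 ± 0.09, and NOTCH2 to 1.05 ± 0.04 in place of 1.501. Which average set the direction at 24 h in the study is not clear from its methods, so both readings are given. By construction, the step moves an average ratio outside the limits further from 1.

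**Figure D5:**
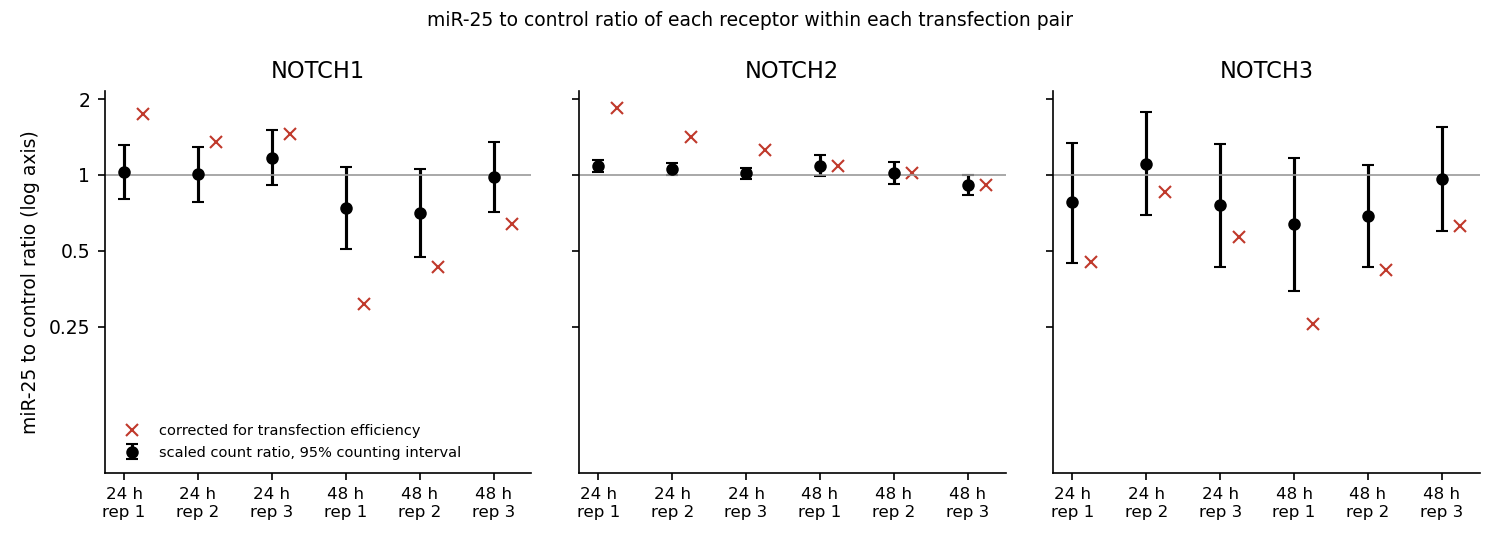
Ratio of miR-25 to control of NOTCH1, NOTCH2 and NOTCH3 in each of the 6 pairs on a log axis, with the exact 95% counting interval (black), and the ratio corrected for transfection efficiency by the average of its time point (red crosses). In 15 of 18 cases the interval holds 1, and the crosses lie further from 1 than the measured ratios except for NOTCH2 at 48 h.

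Whether the miR-25 ratio differed between the times was tested directly. The log2 difference, 48 h minus 24 h, was -0.37 (SE 0.17) for NOTCH1, for which edgeR gave an adjusted p of 0.631 and an unadjusted value of 0.0475. It was -0.07 (SE 0.07) for NOTCH2 and -0.22 (SE 0.27) for NOTCH3 (adjusted p = 0.862 and 0.899 from edgeR). Of all 136 genes edgeR called 0 (0.0%), limma called 0 and DESeq2 called 1, and 8 had an unadjusted p under 0.05 in edgeR.

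A list of 40 other Notch pathway genes on the panel was set beside the receptors, and 37 of them had enough counts to be tested. In the controls 1 was called higher at 48 h and 1 lower, and in the miR-25 samples 2 higher and 1 lower. These are 5.41% and 8.11% of the list, near the 5.15% and 7.35% of all tested genes. The median log2 fold change of the list was 0.21 and 0.17, against 0.13 and 0.09 over all tested genes. FURIN, the convertase that cuts Notch precursors on their way to the cell surface, had 63.1, 59.8 and 66.0 counts per 100000 in the controls at 24 h and 128, 142 and 138 at 48 h. All FURIN values at 48 h were above those at 24 h, in the miR-25 samples too (66.2, 72.2 and 69.1 against 162, 150 and 128). Its log2 fold change was 1.11 (SE 0.11, adjusted p = 0.00277 from edgeR) in the controls and 1.08 (SE 0.12, adjusted p = 0.00664 from edgeR) in the miR-25 samples.

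RBPJ, the DNA-binding partner of all Notch receptors, was lower at 48 h. It had 1153, 1104 and 1126 counts per 100000 in the 24 h controls against 779, 809 and 833 in those of 48 h, which makes a log2 fold change of -0.48 (SE 0.09, adjusted p = 0.017 from edgeR). In the miR-25 samples the log2 fold change of RBPJ was -0.57 (SE 0.11, adjusted p = 0.026 from edgeR). NUMBL, a relative of the Notch antagonist NUMB, was called higher at 48 h in the miR-25 samples, with 94.5, 96.8 and 104 counts per 100000 at 24 h and 142, 140 and 144.4 at 48 h (log2 fold change 0.53, SE 0.10, adjusted p = 0.026 from edgeR). With the positive control scaling, under which the medians of all tested genes were -0.64 and -0.46, FURIN was at 0.35 in the controls (adjusted p = 0.424 from edgeR) and 0.50 in the miR-25 samples, and NUMBL at -0.04. With reference gene scaling the call of NUMBL was lost (0.40, adjusted p = 0.07 from edgeR). All of these calls were kept without 48 h replicate 1, when 54 genes were called in the controls and 62 in the miR-25 samples. Without 24 h replicate 1, 2 or 3 the calls of RBPJ in both arms, and of FURIN and NUMBL in the miR-25 samples, were lost, with adjusted p-values of 0.058 to 0.128 from edgeR, while the call of FURIN in the controls was kept. Without 48 h replicate 2 those of RBPJ and NUMBL were lost too, as were those of RBPJ and NUMBL in the miR-25 samples without 48 h replicate 3. Without any 1 replicate the log2 fold changes were -0.51 to -0.46 for RBPJ in the controls and -0.63 to -0.49 in the miR-25 samples, and in the latter 1.00 to 1.17 for FURIN and 0.50 to 0.57 for NUMBL. Each of the calls in these genes was lost with the replicate number as a block (adjusted p = 0.0514 to 0.0698 from edgeR).

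By role, of the 4 tested ligands 0 were called and of the 16 nuclear factors RBPJ alone, which is 6.25% of them in each arm. HES1, the classic Notch target gene, had a log2 fold change of 0.61 (SE 0.25, adjusted p = 0.139 from edgeR) in the controls. In the miR-25 comparisons 0 of the 37 genes were called at 24 h, at 48 h or over both times. The medians of the list in these were 0.06, 0.00 and 0.04, against 0.03, -0.01 and 0.01 over all tested genes. ADAM17, a sheddase that can cleave NOTCH1, had log2 fold changes of 0.03 (SE 0.07) at 24 h and -0.12 (SE 0.08) at 48 h, with adjusted p-values of 0.957 and 0.54 from edgeR.

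The genes with patterns most like a receptor were found by Pearson's r of log2 levels over the 12 samples, which share time point, depth and scaling. For NOTCH3 they were SMO, the Hedgehog signal transducer (r = 0.870), FURIN (0.868) and the Wnt receptor FZD5 (0.860). For NOTCH2 they were the small GTPase RAC1 (0.899), N-cadherin CDH2 (0.882) and the hyaluronan receptor CD44 (0.860), and for NOTCH1 the Wnt pathway factor TCF7 (0.797), ALDH2 (0.719) and PSEN2 (0.717). Between the receptors r was -0.678 for NOTCH2 and NOTCH3, 0.469 for NOTCH1 and NOTCH3 and 0.003 for NOTCH1 and NOTCH2. With the mean of each time point subtracted these became -0.261, 0.045 and 0.507. After the mean of each time point was subtracted, the highest values for NOTCH3 were 0.671 (PRKCE), 0.631 (FBXW11) and 0.586 (HDAC2), and SMO and FURIN were no longer among the 3 highest. For NOTCH2 they were AXIN1 (0.923), PSEN2 (0.923) and ALDH2 (0.919), and for NOTCH1 they were TCF7 (0.720), PSEN2 (0.672) and FZD6 (0.672). The 12 samples form 6 pairs that each share a transfection, so they are not 12 independent points. NOTCH2 was at 698 and 759 per 100000 in 48 h replicate 1 and at 475 to 556 in the other 48 h samples. The part of that replicate in these r values was not tested.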

How the data were processed

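The authors deposited raw counts per probe from the nCounter Digital Analyser for the 199 genes, 6 positive and 8 negative controls, before background correction or scaling. Symbols came from the panel sheet for 193 identifiers and from a RefSeq table for 6, and 0 sample columns were left out. Receptors and lists were chosen with earlier results of these data known. Each count was divided by the gene total of its sample and given per 100000. Tests used edgeR 4.0.16 in R 4.3.3 (quasi-likelihood) on the 136 genes that averaged 20 or more counts, with Benjamini-Hochberg adjustment and a threshold of 0.05. Times were compared within each arm without a block. miR-25 was compared with all 12 samples in 1 fit and the transfection pair as a block, since both samples of a pair share a transfection efficiency; their deviations from the group means correlated at 0.283 to 0.883 over 6 pairs. No pair of samples of a group agreed within sampling noise (chi-square per degree of freedom 2.52 or more). Replicates at 1 time were separate transfections of 1 line, so p-values over time measure the spread between transfections. Those for miR-25, with the pair as a block, measure how the difference of miR-25 and control within a pair varied between pairs.

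Exact intervals (95%) for pair ratios were conditional binomial and cover counting error only. Within-sample ratios were tested by exact permutation with scipy 1.17.1. Alternatives were TMM, 5 reference genes, positive controls, DESeq2 1.42.0, limma 3.58.1 (pseudocount 1, or 5 after background subtraction), no filter or an average of 100 or more counts, other blocks and each pair left out. The fits were tested on simulated data. The genes named were the receptors, NOTCH4 for its level, the 3 genes most like each receptor, and pathway genes called in a miR-25 comparison or, over time, up to 3 a direction. HES1 and ADAM17 were added for their roles, and the change of NOTCH4 over time was added beside that of NOTCH3. Values of some pathway genes are not reported here. Other tools were python 3.11.15, numpy 2.4.6, pandas 2.3.3 and matplotlib 3.10.9.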

Additional observations from a re-analysis of the deposited data

Results flagged for a closer look

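The miR-25 to control ratio of NOTCH1 was above 1 in 3 of 3 pairs at 24 h and below 1 in 3 of 3 pairs at 48 h. The panel as a whole leaned the same way: 70.6% of the 136 tested genes had a log2 fold change above 0 at 24 h and 44.1% at 48 h. The difference between the times was above 0 for 36.8% of them. For NOTCH1 this log2 difference was -0.37 (SE 0.17), and it did not pass edgeR's quasi-likelihood test after adjustment (adjusted p = 0.631, and 0.376 to 0.974 without any 1 replicate pair). With 3 samples a group, no test for single outlying values was made; the correlations given for 48 h replicate 1 are a description.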

How the results depend on the processing

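Of the 297 receptor values computed under other settings, 259 kept their direction and their side of the threshold. Only NOTCH3 over time in the controls was called in the main fit, so for most others this meant staying not called. That call was kept in 2 of 6 fits without 1 replicate and in 8 of 10 other settings with a test. Of the 44 within-sample values, whose tests cannot pass 0.05, 43 kept their direction. Over time, groups without overlap cannot change direction when 1 replicate is left out. Relative to the positive controls (chosen after seeing the data), log2 changes from 24 h to 48 h were -0.35, -1.09 and 0.66 for NOTCH1, NOTCH2 and NOTCH3 in the controls (26 genes called) and -0.52 and -0.96 for NOTCH1 and NOTCH2 in the miR-25 samples (50 called; NUMBL -0.035). NOTCH2 was then at 0.29 for miR-25 at 48 h (51 called) and at 0.15 for the difference between times, and NOTCH1 at 0.065 over both times. NOTCH1 over time in the miR-25 samples was -0.092 with reference genes and -0.0040 and -0.0034 after background subtraction. NOTCH2 for miR-25 at 48 h was -0.013 with TMM, -0.028 with reference genes and -0.0055 with DESeq2. NOTCH3 over time in the miR-25 samples was past the threshold at 1.16 (TMM), 1.17 (DESeq2) and 1.18 (all samples in 1 fit). With the replicate block NOTCH3 in the controls was 1.42, and 0 genes were called over time in either arm; the numbers pair no samples across times (r -0.096 to 0.057). Time calls rose to 22 and 33 with DESeq2, and in the miR-25 samples to 17 with TMM or all samples in 1 fit, and fell to 6 with no filter. For miR-25 at 48 h, 0 genes were called with reference genes, background subtraction or no replicate block, and 3 with no filter or that time alone; at 24 h alone 3 were called. Efficiency correction gave log2 means of 0.59, 0.57 and -0.73 for NOTCH1, NOTCH2 and NOTCH3 at 24 h (NOTCH1 -0.40, NOTCH2 0.07 and NOTCH3 -0.73 by the 48 h average) and -1.19 and -1.30 for NOTCH1 and NOTCH3 at 48 h. Leaving out 1 replicate gave, over time in the controls, -0.47 to -0.19 for NOTCH2, 1.22 to 1.59 for NOTCH3 and 1 to 54 genes called, and in the miR-25 samples -0.071 to 0.17 for NOTCH1, -0.60 to -0.25 for NOTCH2, 1.02 to 1.48 for NOTCH3 and 0 to 62 genes. For miR-25 it gave 0 to 3 genes at 24 h, 0 to 2 at 48 h, -0.065 to 0.076 for NOTCH2 at 48 h, -0.14 to 0.0029 for the NOTCH2 difference, and -0.080 to 0.068 for NOTCH1 per NOTCH2 at 24 h. The cause of these shifts was not tested. NOTCH1 and NOTCH3 have no value at a mean of at least 100 counts. Depth limits NOTCH3 most.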
